A study of Mus musculus with 12 samples.

Results

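Aldosterone acts in the distal nephron through a small group of sodium transport genes, and 6 of them were followed here in fibroblasts of neonatal mouse hindlimb muscle. The members were *Scnn1a*, *Nedd4l*, *Slc12a2*, *Wnk1*, *Atp1b1* and *Atp1b3*, chosen by gene name, and all 6 were found among the 28995 genes listed in any of the deposited tables. The fibroblasts came from 3-day-old C57 BL/10 wild-type mice, had been enriched by adherence, and were treated at passage 2 for 48 hours with 1 µM aldosterone, which activates the mineralocorticoid receptor (MR), with 1 µM spironolactone, an MR antagonist, or with the DMSO vehicle. All groups had been in charcoal-stripped serum, which lacks endogenous steroids, from 24 hours before treatment. Poly(A) RNA of 12 plates was sequenced, 4 for each treatment. According to the labels the cells of each of 2 mice were pooled and grown as 2 replicate plates under every treatment. Of the plate's sample number and biological replicate number, each 1 or 2, the labels leave unsaid which is that of the mouse. Unless said otherwise, the p-values below therefore measure the spread over the plates of a treatment, within and between sample numbers together, which may in part be technical. Except where sample numbers are blocked, averaged or taken singly, the tests treat the plates as independent, although same-numbered libraries resembled each other.

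In the principal cells of the kidney, sodium enters through the epithelial sodium channel ENaC, built from α, β and γ subunits (*Scnn1a*, *Scnn1b*, *Scnn1g*), and leaves through the Na,K-ATPase, a pump of a catalytic α subunit and a β subunit (*Atp1b1* and *Atp1b3* encode β1 and β3) that carries the pump to the membrane. *Nedd4l* encodes the ubiquitin ligase NEDD4-2, which removes ENaC from the surface and is itself held back by the aldosterone-induced kinase SGK1. *Wnk1* encodes a chloride-sensing kinase that acts through SPAK and OSR1 on cation-chloride cotransporters, among them NKCC1, the *Slc12a2* product. NKCC1, the pump and WNK1 are also found in cells that are not epithelial, where they serve cell volume and ion balance. The comparison asks whether these effectors also respond to aldosterone in fibroblasts.

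The sequences just upstream of *Atp1b1* and *Wnk1* are shown because these were the members that moved with aldosterone, and that of *Wnk4*, a kinase related to *Wnk1*, because it moved with them. The RefSeq promoter set of build GRCm38.p6 held 3 of the 6 members, and the 250 bases before the start are given, 5′ to 3′ on the strand of the gene. *Atp1b1* lies on the minus strand at chr1:164458356-164458605, *Wnk1* on the minus strand at chr6:120038656-120038905 and *Wnk4* on the plus strand at chr11:101260317-101260566. Capitals mark the GC box GGGCGG on either strand.
Atp1b1: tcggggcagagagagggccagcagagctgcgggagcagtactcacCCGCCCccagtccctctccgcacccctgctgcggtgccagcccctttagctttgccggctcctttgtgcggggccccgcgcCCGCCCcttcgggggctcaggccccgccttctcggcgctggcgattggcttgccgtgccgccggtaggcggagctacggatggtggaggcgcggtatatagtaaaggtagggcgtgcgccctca
Wnk1: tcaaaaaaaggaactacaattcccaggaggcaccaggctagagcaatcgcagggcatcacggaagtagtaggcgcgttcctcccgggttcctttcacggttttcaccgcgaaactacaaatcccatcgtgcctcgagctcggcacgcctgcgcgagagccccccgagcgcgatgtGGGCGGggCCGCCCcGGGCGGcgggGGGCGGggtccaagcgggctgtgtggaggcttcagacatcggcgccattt
Wnk4: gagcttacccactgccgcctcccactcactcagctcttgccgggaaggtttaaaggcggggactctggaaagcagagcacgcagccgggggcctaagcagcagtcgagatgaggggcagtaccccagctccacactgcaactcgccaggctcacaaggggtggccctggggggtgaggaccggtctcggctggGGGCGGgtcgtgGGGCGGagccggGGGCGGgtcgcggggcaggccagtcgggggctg
The 6-letter half-site of steroid receptors, AGAACA, was searched on both strands and was in none of these 3 windows, nor in either of the 2 *Atp1b3* windows of the set. It was in 16.1% of all 32851 promoter windows of that length. The full palindrome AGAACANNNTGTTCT was in 3 of them. The GC box was found 2 times upstream of *Atp1b1*, 4 times upstream of *Wnk1* and 3 times upstream of *Wnk4*, and at least once in 32.7% of all windows. Matches of the half-site and of the GC box cannot overlap. These are matches of letters in a short window and say nothing of whether a receptor binds elsewhere. The windows shown were between 64.0% and 70.4% G and C, against a median of 52.4% over all windows.

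In the tables the members lay on chromosome 6 (*Scnn1a*, 125297622 to 125321906, plus strand, and *Wnk1*, 119900930 to 120015633, minus strand), chromosome 1 (*Atp1b1*, 164264678 to 164285924, minus strand), chromosome 9 (*Atp1b3*, 96214708 to 96246495, minus strand) and chromosome 18 (*Nedd4l*, 65020776 to 65350899, and *Slc12a2*, 58011750 to 58079893, both plus strand). These coordinates are printed as the tables give them, and the submitters' notes name mm39. All 6 are protein-coding, and a value counts the reads of the whole gene. The 3′ end of *Atp1b1* shares 617 bases with *Nme7* on the other strand, and the sources do not say whether strand was used in counting. *Nme7* had a log2 fold change of -0.00070 (adjusted p = 0.998) in the comparison of aldosterone with vehicle, where *Atp1b1* moved.

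Counts on genes were between 19136923 and 30219185 reads per library. Fibroblast markers were abundant in every library, with some markers of other cells beside them. The summed level of 8 fibroblast markers, collagens among them, was between 42408 and 52608 CPM (counts scaled to library size) in every library, between 42408 and 46782 with aldosterone and between 48298 and 52608 with vehicle. Of the 7 epithelial markers in the tables, *Epcam*, *Krt8* and *Esrp1* had at most 2 reads in any library and *Cdh1* had 10 to 31, while *Krt19* had 249 to 702. The 4 pericyte and smooth muscle markers summed to 361 to 510 CPM with vehicle and 292 to 463 with aldosterone. Among them *Cspg4* had 6375 to 12311 reads per library, *Myh11* 609 to 2049, *Rgs5* 85 to 339 and *Kcnj8* 16 to 45.

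Some markers of other cells moved with aldosterone against vehicle (limma, adjusted p at most 0.05). None of the 7 epithelial markers was called, and their sum was 17.7 to 29.4 CPM with aldosterone and 12.7 to 19.3 with vehicle. Of 7 collecting duct and distal tubule markers only 3 were in the tables, *Aqp2* and *Aqp3* with at most 12 and 7 reads. Of these 3, *Hsd11b2*, which inactivates glucocorticoids, was higher (1 to 36 reads). In sum the 3 had 1.20 to 2.54 CPM with aldosterone and 0.164 to 1.22 with vehicle. Of 4 endothelial markers *Kdr* was higher (28.2 to 31.4 against 19.6 to 22.2 CPM in sum) and of 4 Schwann cell markers *S100b* (13.1 to 19.2 against 10.1 to 13.6 CPM). Of 7 skeletal muscle markers *Acta1* was lower (8.64 to 18.5 against 21.7 to 31.7 CPM in sum), and *Myog*, *Pax7*, *Myf5* and *Ckm* had at most 3 reads. Of the fibroblast markers *Pdgfra* and *Vim* were higher and *Col3a1* was lower, and none of 4 macrophage or 4 pericyte and smooth muscle markers was called. Their part in the results below was not tested. In bulk RNA fewer cells of a type and less RNA per cell cannot be told apart.

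The 6 genes spanned more than 2 orders of magnitude in the vehicle-treated fibroblasts when set on a scale of reads divided by gene length and library size (RPKM). *Atp1b3* was highest at 44.0 ± 3.06 RPKM (SD, n = 4), followed by *Wnk1* at 20.7 ± 0.736, *Slc12a2* at 6.0 ± 0.838, *Atp1b1* at 2.43 ± 0.306, *Nedd4l* at 0.887 ± 0.103 and *Scnn1a* at 0.313 ± 0.104 (same SD and n). No neighbours in this order overlapped over the 4 libraries, and the order was the same with spironolactone. With aldosterone *Atp1b1* reached 5.62 ± 0.658 RPKM, and its range over 4 libraries then overlapped that of *Slc12a2* at 5.74 ± 0.930. Over all 12 libraries, 93.6% of the 15313 genes whose mean reached 10 reads had a lower level than *Atp1b3*, 45.0% a lower level than *Atp1b1* and 8.39% a lower level than *Scnn1a*. The tables' gene lengths join all exons, 22825 bases for *Wnk1* and 19400 for *Nedd4l*, so that levels of these long genes are lower on this scale than they would be for a shorter transcript.

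**Figure D1:**
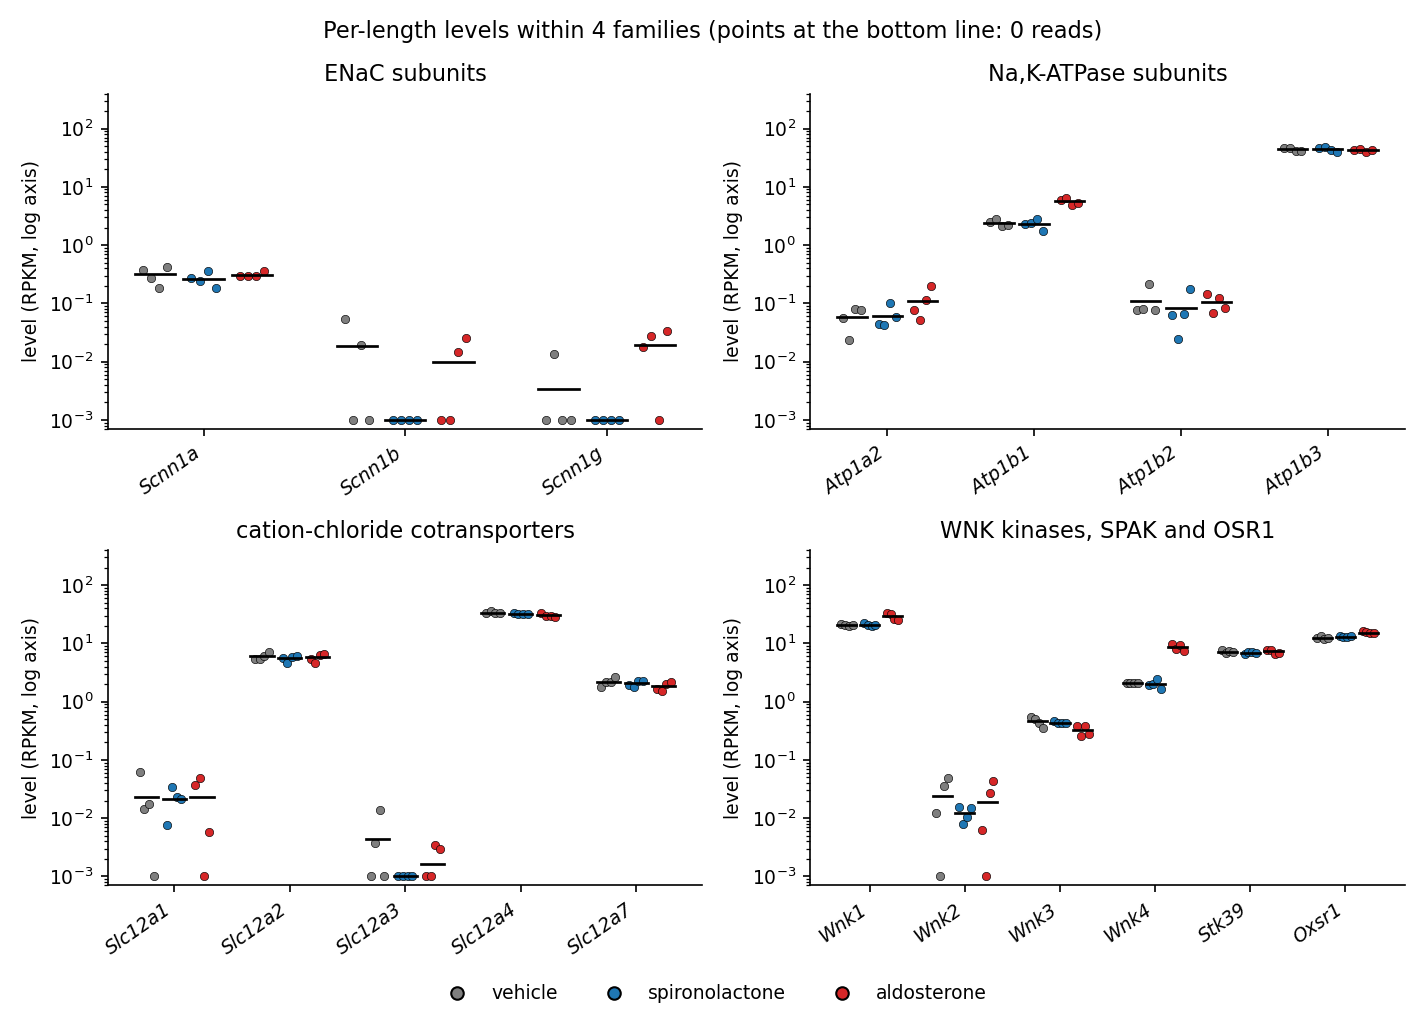
Levels of the members and their relatives in RPKM (log axis) in 4 families, with 1 point per library, lines for the mean of 4 libraries and colours for the treatment. Libraries with 0 reads are drawn at the lower edge. *Scnn1a* is the ENaC subunit with reads in every library, *Atp1b3* lies above *Atp1b1* in each treatment, and the aldosterone points of *Atp1b1*, *Wnk1* and *Wnk4* sit above the others.

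The families were expressed unevenly. Of the ENaC subunits, *Scnn1b* had at most 4 reads and *Scnn1g* at most 3 in any library, and neither had a read in any of the 4 spironolactone libraries, where 0 is a count that allows up to 3 reads per library. *Scnn1a* had 15 to 45 reads per library. *Atp1b3* made up most of the summed β subunit RPKM of the pump. Of the cotransporters, the kidney-specific *Slc12a1* had at most 10 reads and *Slc12a3* at most 3, whereas *Slc12a4*, encoding the potassium-chloride cotransporter KCC1, stood at 33.8 ± 1.08 RPKM (SD, n = 4) with vehicle. *Nedd4*, the paralog of *Nedd4l*, stood at 176 ± 3.05 RPKM with vehicle, so that *Nedd4l* was 0.502% ± 0.0613 (SD, n = 4) of both together.

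Aldosterone raised 2 of the 6 members compared with vehicle, *Atp1b1* by 2.30-fold and *Wnk1* by 1.40-fold. The other 4, *Scnn1a*, *Nedd4l*, *Slc12a2* and *Atp1b3*, did not pass the test. The test was limma on log2(normalized count + 1), where a normalized count is a gene's reads after scaling by library. Genes were called where the p adjusted by Benjamini and Hochberg over the whole table did not exceed 0.05. By that rule 5.68% of the 27319 genes were called higher with aldosterone and 4.74% lower, 2847 genes in all, or 4563 with sample numbers as a replicate block, which left the same members called. *Atp1b1* also passed the stricter threshold of the study, which adds a log2 fold change of at least 1. Applied here to limma, 1.40% of genes passed it upwards, whereas the study applied it to DESeq2.

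*Atp1b1*, encoding the β1 subunit, was measured at 431 and 469 normalized counts in the aldosterone libraries of sample number 1 and at 358 and 387 in those of sample number 2. The vehicle libraries had 185 and 207 with sample number 1 and 157 and 164 with sample number 2. The lowest aldosterone value lay above the highest vehicle value, and in both groups the libraries of sample number 1 were the higher ones. The log2 fold change was 1.20 (SE 0.111, 95% interval 0.97 to 1.44, limma adjusted p = 1.38e-06), or 2.30-fold with an interval of 1.95 to 2.71. The exact permutation test of 4 against 4 libraries gave p = 0.0286, the smallest it can give.

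*Wnk1*, encoding the kinase at the head of the cascade, had 17894 and 17454 normalized counts in sample number 1 with aldosterone and 14500 and 13692 in sample number 2. With vehicle it had 11627 and 11334 in sample number 1 and 10745 and 11288 in sample number 2. The groups did not overlap, and the aldosterone libraries of sample number 1 were further from the vehicle libraries than those of sample number 2. The log2 fold change was 0.49 (SE 0.0781, 95% interval 0.32 to 0.65, limma adjusted p = 0.000432), with an exact permutation p of 0.0286. When the libraries of a sample number were averaged, leaving 2 values against 2, the adjusted p of *Wnk1* was 0.101 and that of *Atp1b1* 0.00980.

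*Scnn1a*, the α subunit of ENaC, had 29.7 and 28.9 normalized counts with aldosterone in sample number 1 and 28.5 and 35.3 in sample number 2. The vehicle libraries had 36.9 and 27.3 in sample number 1 and 18.3 and 40.8 in sample number 2, so that the aldosterone values lay within the vehicle range. Its log2 fold change was 0.05 (SE 0.282, adjusted p = 0.956), and the 95% interval of -0.55 to 0.65 spans a 0.682-fold to 1.56-fold level. The sign of the estimate turned to -0.02 in edgeR and in DESeq2 on the recovered reads.

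*Nedd4l*, encoding the ligase that acts on ENaC, had 353 and 345 normalized counts with aldosterone in sample number 1 and 435 and 373 in sample number 2, against 371 and 368 and then 461 and 441 with vehicle. In both groups the libraries of sample number 2 were the higher ones. The groups overlapped over all libraries, while within each sample number both aldosterone values lay below both vehicle values. With the replicate block it was not called either (limma adjusted p = 0.328). Its log2 fold change was -0.12 (SE 0.0990, 95% interval -0.33 to 0.09, adjusted p = 0.554 by limma). *Slc12a2*, encoding NKCC1, ranged from 1192 to 1696 normalized counts with aldosterone and from 1394 to 1843 with vehicle, with a log2 fold change of -0.07 (SE 0.107, 95% interval -0.30 to 0.15, adjusted p = 0.758). *Atp1b3*, encoding the abundant β3 subunit, ranged from 2282 to 2543 with aldosterone and from 2341 to 2680 with vehicle. Its log2 fold change was -0.06 (SE 0.0606, adjusted p = 0.677 by limma), with the narrowest interval of the members, -0.18 to 0.07. In the same libraries *Fkbp5* and *Per1*, genes known to follow steroid receptors, were higher with aldosterone by 4.26 and 1.83 on the log2 scale (limma adjusted p = 4.02e-15 and 3.34e-12).

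**Figure D2:**
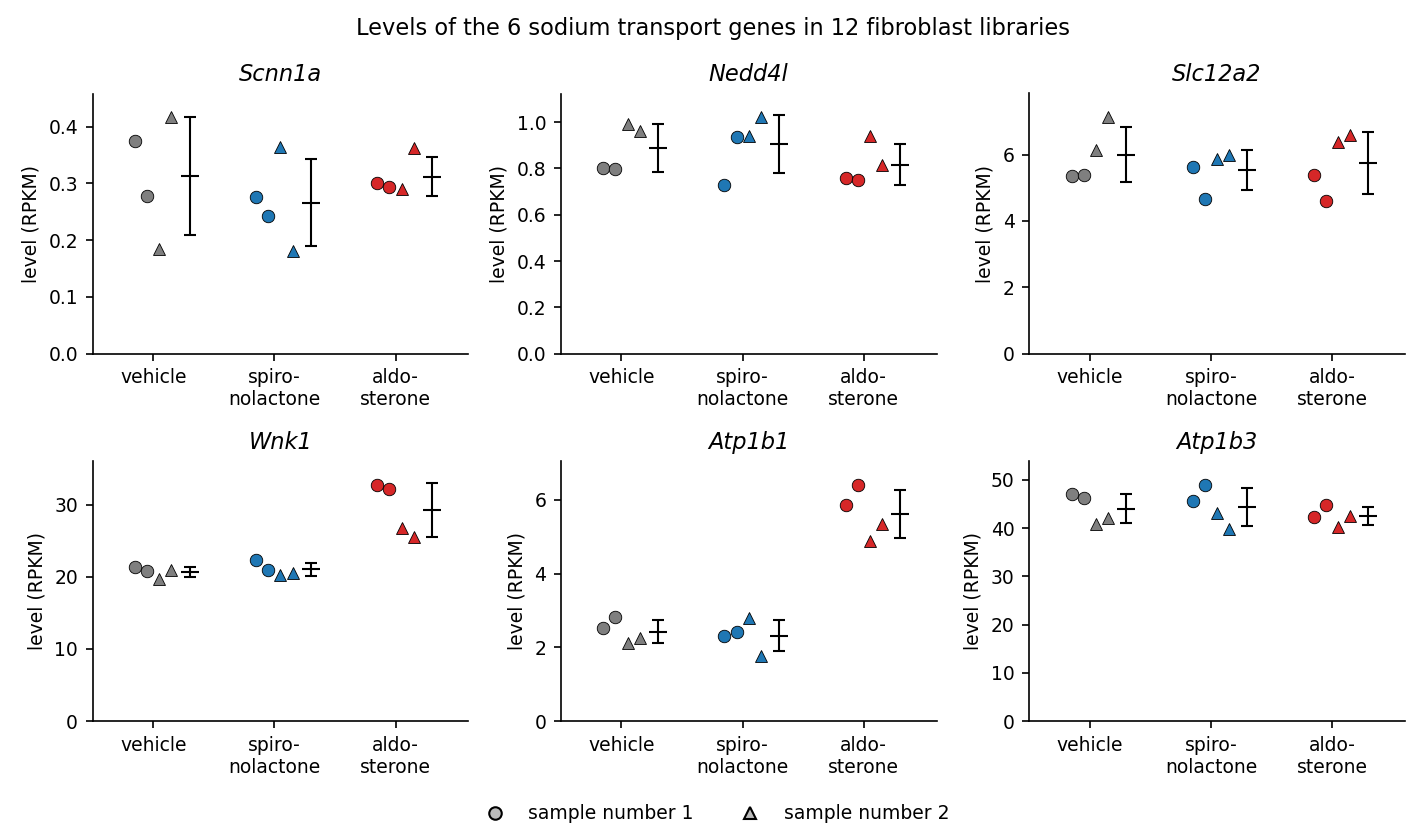
Level of each member (RPKM, axis from 0) in the 4 libraries of each treatment, with circles for sample number 1, triangles for sample number 2, and the mean and SD beside the points. The aldosterone libraries of *Atp1b1* lie between 4.89 and 6.41 RPKM, above the highest vehicle value of 2.82, those of *Wnk1* also lie apart, and the points of the other genes overlap between treatments.

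The comparison of aldosterone with spironolactone sets the agonist against the antagonist and shares the aldosterone libraries with the comparison above. The same members, *Atp1b1* and *Wnk1*, were higher with aldosterone. Of the 27631 genes compared, 4.93% were called higher and 3.96% lower (2454 genes in all, or 3974 with the block, again with the same members), and 1.38% passed both thresholds upwards. *Atp1b1* had 174 and 181 normalized counts with spironolactone in sample number 1 and 209 and 134 in sample number 2, all below the lowest aldosterone value of 368 in that table. Its log2 fold change was 1.28 (SE 0.126, 95% interval 1.02 to 1.55, limma adjusted p = 1.63e-06). *Wnk1* had 12464 and 11641 with spironolactone in sample number 1 and 11252 and 11495 in sample number 2, below the lowest aldosterone value of 14067. Its log2 fold change was 0.47 (SE 0.0793, limma adjusted p = 0.000589). Without the spironolactone library of sample number 1 and biological replicate 2, *Wnk1* no longer passed (adjusted p = 0.0535 by limma), and with libraries averaged by sample number its adjusted p was 0.163. The other members gave log2 fold changes of 0.26 for *Scnn1a* (95% interval -0.32 to 0.84, adjusted p = 0.697), -0.14 for *Nedd4l* (-0.36 to 0.08, adjusted p = 0.544), 0.05 for *Slc12a2* (-0.17 to 0.26, adjusted p = 0.870) and -0.06 for *Atp1b3* (-0.20 to 0.08, adjusted p = 0.707), by limma.

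Spironolactone alone left none of the members called against vehicle, in a table where 0% of 27598 genes were called higher by limma and none lower. At the same adjusted threshold edgeR called 0 genes and DESeq2 13. At an unadjusted p under 0.05 limma had 1251 genes, edgeR 751 and DESeq2 708. With sample numbers taken as a replicate block limma called 97 genes, none of them a member. The members' log2 fold changes were between -0.21 for *Scnn1a* (95% interval -0.87 to 0.45) and 0.02 for *Nedd4l* (-0.20 to 0.25). *Atp1b1* was at 171 ± 30.7 normalized counts with spironolactone and 180 ± 22.5 with vehicle (SD, n = 4), a log2 fold change of -0.08 (95% interval -0.37 to 0.21). *Wnk1* was at 11478 ± 504 with spironolactone and 11317 ± 358 with vehicle, a log2 fold change of 0.02 with an interval of -0.09 to 0.13.

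**Figure D3:**
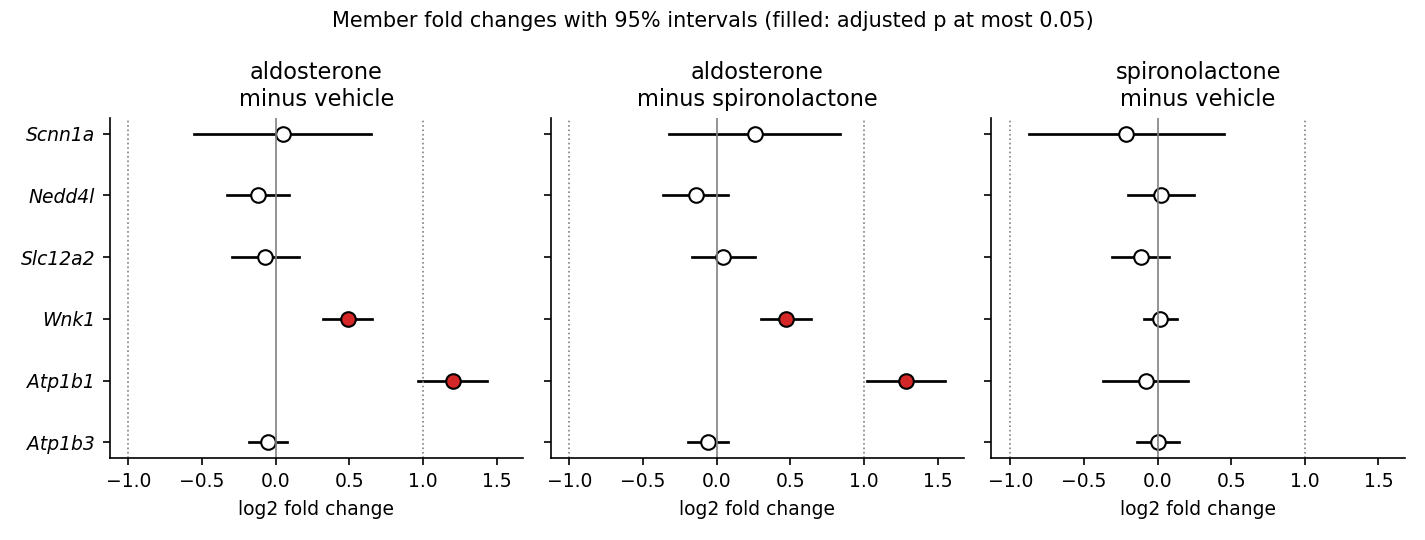
Log2 fold changes of the members with 95% intervals in the 3 comparisons, each as the first treatment minus the second, with filled points where the adjusted p was at most 0.05 and dotted lines at a log2 fold change of 1 in either direction. *Atp1b1* and *Wnk1* are filled in both comparisons with aldosterone, at 1.20 and 0.49 against vehicle, and no point is filled in the comparison of spironolactone with vehicle.

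The makeup of the pump's β subunits was compared as a share. *Atp1b1* was 5.21% ± 0.360 of the summed β subunit RPKM with vehicle, 4.96% ± 0.781 with spironolactone and 11.6% ± 0.796 with aldosterone (SD, n = 4). The share does not depend on how libraries are scaled. It was higher in each aldosterone library than in every vehicle or spironolactone library (exact permutation p = 0.0286 for each, 0.0643 after adjustment over the 9 tests of shares, which misses 0.05). Since 0.0286 is the smallest p this test can give, the adjusted value depends on how many of the 9 tests reach it. The summed β subunit level was 48.2 ± 2.52 RPKM with aldosterone and 46.6 ± 3.28 with vehicle, ranges that overlapped. No test was made of this sum.

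The WNK kinases were compared in the same way. *Wnk1* was 89.0% ± 0.342 of the summed WNK RPKM with vehicle and 76.5% ± 2.65 with aldosterone (SD, n = 4, exact permutation p = 0.0286, 0.0643 adjusted over the 9 tests of shares). This lower share stood beside a higher level of *Wnk1*, and *Wnk4* made up 8.93% ± 0.337 with vehicle and 22.6% ± 2.45 with aldosterone. The shares divide by joined exon lengths of 22825 bases for *Wnk1* and 4148 for *Wnk4*, which makes *Wnk4* a larger part than in counts. In normalized counts *Wnk1* had a mean of 11248 with vehicle and 15885 with aldosterone. *Wnk4*, encoding a kinase known for control of distal sodium chloride transport, had 970, 780, 922 and 731 normalized counts with aldosterone and 203 to 207 with vehicle, a log2 fold change of 2.04 (SE 0.0913, limma adjusted p = 2.07e-10). For *Nedd4l* the share of the 2 *Nedd4* paralogs was 0.495% ± 0.0529 with aldosterone, beside the vehicle value given above (exact permutation p = 0.943, 0.943 adjusted over the same 9 tests).

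The members were then set in a wider list of 56 sodium transport genes grouped by role, of which 54 were in the table of aldosterone and vehicle and 38 reached a mean of 10 normalized counts. Of the 54, 7 genes (13.0%) rose and 1 (1.85%) fell, beside 5.68% and 4.74% of all genes. The median log2 fold change of the 38 was -0.0089, beside -0.0033 for the 15245 genes of that mean in the table, and the list was chosen with results of these data known. Of the ENaC subunits 0 of 3 passed. Of the 4 β subunits *Atp1b1* passed and of the 7 FXYD regulators none. Of the 3 α subunits and the 6 cotransporters kept in the list none passed, and the widely expressed *Slc12a4* had a log2 fold change of -0.16 (limma adjusted p = 0.0935).

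In the WNK-SPAK cascade 3 of 9 genes rose (33.3%) and none fell, beside 5.68% and 4.74% of all genes. Beside *Wnk1* and *Wnk4* this was *Oxsr1*, encoding the kinase OSR1 that WNK1 activates, at 1955 ± 95.03 normalized counts with aldosterone and 1605 ± 87.2 with vehicle (SD, n = 4), a log2 fold change of 0.28 (SE 0.0594, limma adjusted p = 0.00438, or 0.150 with libraries averaged by sample number). Its partner kinase SPAK, encoded by *Stk39*, had a log2 fold change of -0.01 (95% interval -0.15 to 0.14). *Wnk3* was at -0.49 (adjusted p = 0.113) and *Klhl3*, encoding an adaptor for WNK degradation, at -0.94 (adjusted p = 0.184, limma), neither past the threshold.

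Of the 8 genes of ubiquitin control of ENaC, *Sgk1* and *Tsc22d3* rose and none fell, beside 5.68% and 4.74% of all genes. *Sgk1*, encoding the kinase that holds back NEDD4-2, was at 5810 ± 466 normalized counts with aldosterone and 1478 ± 195 with vehicle (SD, n = 4), a log2 fold change of 1.98 (SE 0.0841, limma adjusted p = 1.04e-10). *Tsc22d3*, encoding GILZ, a partner of SGK1 in the control of ENaC, was at 12644 ± 506 and 1958 ± 45.2, a log2 fold change of 2.69 (SE 0.0511, limma adjusted p = 4.02e-15). The RNA of *Nedd4l*, whose protein SGK1 holds back, was not called, nor was that of its paralog *Nedd4*. *Nedd4* had a log2 fold change of -0.10 (95% interval -0.23 to 0.02). Action on the NEDD4-2 protein cannot be read from RNA levels. Of the 6 ENaC-cleaving proteases and inhibitors and the 2 potassium channels of the distal nephron in the table none passed.

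Of the 6 genes listed with the sodium-proton and sodium-bicarbonate carriers, not all of them carriers, 1 rose and 1 fell (16.7% each), beside 5.68% and 4.74% of all genes. *Slc4a4*, encoding the electrogenic sodium-bicarbonate cotransporter NBCe1, was at 409 ± 26.5 normalized counts with aldosterone and 234 ± 36.6 with vehicle (SD, n = 4), a log2 fold change of 0.81 (SE 0.111, limma adjusted p = 9.70e-05). *Slc4a7*, encoding the electroneutral NBCn1, was at 1073 ± 92.2 and 1556 ± 123, and fell by 0.54 on the log2 scale (SE 0.0738, limma adjusted p = 0.000103). The 2 groups of libraries did not overlap for either gene. Against spironolactone 9 of the 55 list genes in that table were higher (16.4%) and 1 lower (1.82%), beside 4.93% and 3.96% of all genes. The additional ones were *Usp2*, encoding a deubiquitinase of ENaC (log2 fold change 0.42, limma adjusted p = 0.0349), and *Slc9a3*, encoding the exchanger NHE3 (1.91, adjusted p = 0.0429, at most 57 reads in a library), both named after their values were seen. In the comparison of spironolactone with vehicle none of 54 list genes was called by limma.

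**Figure D4:**
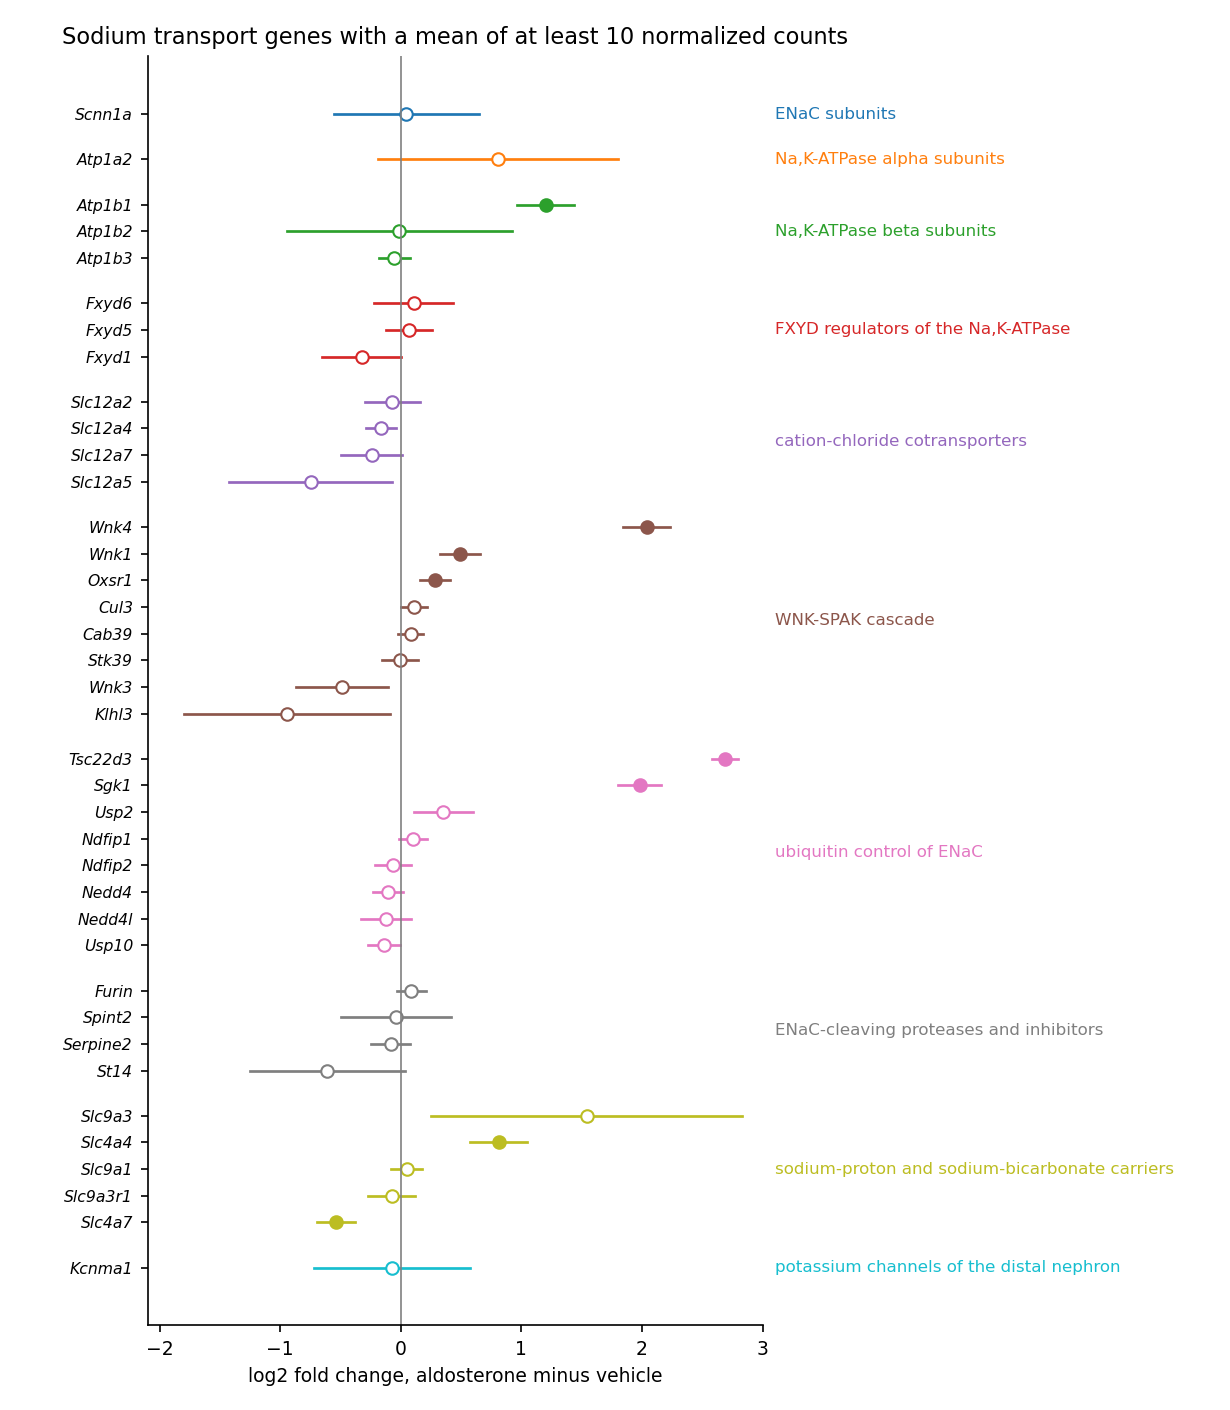
Log2 fold change of aldosterone minus vehicle for the 38 listed genes that reached a mean of 10 normalized counts, by role, with 95% intervals and filled points where the adjusted p was at most 0.05. *Tsc22d3*, *Wnk4* and *Sgk1* are at 2.69, 2.04 and 1.98, *Atp1b1* is at 1.20 among β subunits near 0, and *Slc4a7* is the filled point below 0.

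The plates differed by sample number as well as by treatment, and the members shared in this. The p-values between sample numbers measure the spread of plates within a number and treat those plates as independent. With only 2 sample numbers, they cannot say how far such groups vary. In a fit of the 12 libraries with treatment as a term, *Slc12a2* was higher in sample number 2 by 0.29 (log2 of CPM + 1, SE 0.0546, limma adjusted p = 0.00286) and *Nedd4l* by 0.24 (SE 0.0586, limma adjusted p = 0.0183). For both, every sample number 2 library was above the sample number 1 libraries of its treatment. *Atp1b3* was lower in sample number 2, at -0.14 (limma adjusted p = 0.0124), and *Wnk1* at -0.15 (adjusted p = 0.0307), while *Atp1b1* at -0.19 (adjusted p = 0.235) and *Scnn1a* at -0.0014 (adjusted p = 0.997) did not pass. In this fit 4.67% of the 28995 genes were called higher and 5.23% lower in sample number 2, and of the 6 members 2 were called in each direction. Within the sample numbers the log2 fold change of aldosterone minus vehicle was 1.20 and 1.21 for *Atp1b1* and 0.62 and 0.36 for *Wnk1*. The difference in the *Wnk1* response between sample numbers was -0.27 (limma unadjusted p = 0.00243, adjusted p = 0.895 over all genes), and no member passed that test after adjustment.

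**Figure D5:**
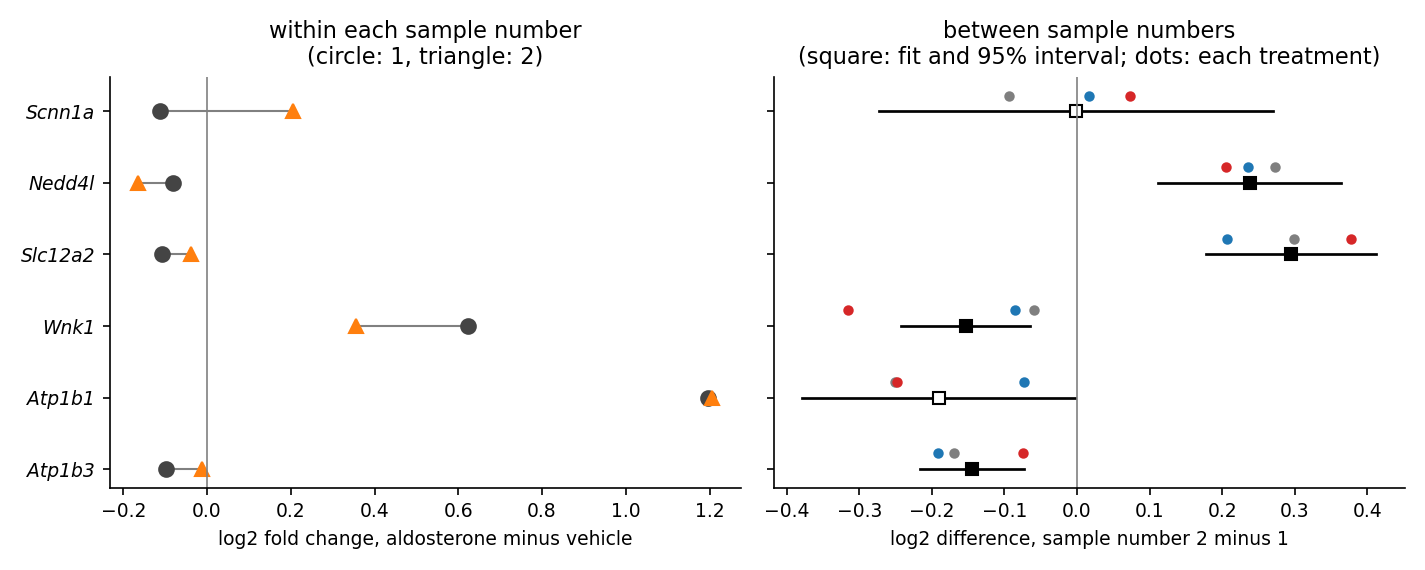
Left, log2 fold change of aldosterone minus vehicle within sample number 1 (circles) and 2 (triangles), and right, log2 difference of sample number 2 minus 1 over the 12 libraries with its 95% interval (squares, filled where the adjusted p was at most 0.05), with grey, blue and red dots for vehicle, spironolactone and aldosterone. *Atp1b1* is at 1.20 and 1.21 on the left, *Wnk1* at 0.62 and 0.36, and *Slc12a2* and *Nedd4l* lie right of 0 on the right in each treatment.

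For each member the 3 genes most like it over the 12 libraries were found by Pearson's r on log2(CPM + 1), among 12298 genes that reached a mean of 50 reads. These are descriptions, since libraries share a treatment and a sample number. *Atp1b1* was followed by *Igf2bp2* (r = 0.984), encoding an RNA-binding protein, *Tob2* (r = 0.981), an antiproliferative factor, and *Scpep1* (r = 0.980), a carboxypeptidase, with log2 fold changes against vehicle of 0.21, 0.50 and 0.50. *Wnk1* was followed by *Adam12* (r = 0.991), a metalloprotease, *Galnt1* (r = 0.986), a glycosyltransferase, and *Akap12* (r = 0.983), a kinase scaffold, at 0.79, 0.45 and 0.31. All 6 of these were called higher with aldosterone in both comparisons. Because likeness was taken over the same libraries, these calls and their absence below largely follow from the choice. The genes most like the other members were not called. They were *AW554918*, *Pnisr* and *Phc3* for *Slc12a2* (r from 0.957 to 0.961), *Gm1673*, *Bcar3* and *Stxbp2* for *Nedd4l* (0.928 to 0.944), *Tmed5*, *Hspd1* and *Thsd1* for *Atp1b3* (0.926 to 0.930), and *Mrpl1*, *Slc25a26* and *Rdm1* for *Scnn1a* (0.819 to 0.872).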

How the data were processed

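Poly(A) RNA of 12 fibroblast plates was sequenced. Per the submitters' processing notes reads were aligned with HISAT2 (2.0.5) and counted with featureCounts (1.5.0-p3), with mm39 named, whereas the methods name mm9. The tables' gene starts matched NCBIM37 at 39 of 20676 genes, so positions are printed as deposited. The authors deposited 3 tables, one for each pair of treatments, whose signal is a gene's count after scaling by the library's size factor, called normalized counts here. The tables also hold the authors' fold changes and p-values from DESeq2, which were not used. Whole reads were recovered from these steps for 22 of 24 columns, where 100% of values were whole within 0.01 read. The other 2 columns were read from the second table of the library. Each table was normalized separately, so tests stayed within a table.

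Treatments were compared with limma (3.58.1, R 4.3.3, trend in the prior variance) on log2(normalized count + 1), a scale on which fold changes of low genes are understated. p-values were adjusted by Benjamini-Hochberg over all genes of a table and single values compared by two-sided exact permutation tests. Levels between genes used RPKM from recovered reads with TMM library sizes from edgeR (4.0.16). DESeq2 (1.42.0) and edgeR on recovered reads, other scalings, filters and left-out libraries were alternatives. The fit of sample numbers over 12 libraries, the test of responses between sample numbers and the shares without 1 library were added after seeing the data. The fits were checked on simulated counts with a common dispersion and no difference between sample numbers, so the check does not cover that grouping. In deviations from group means over 12298 genes, same-numbered libraries of different treatments correlated in all 24 pairs (Pearson's r from 0.234 to 0.508), so the sample number pairs the libraries. Fits with it as a block are given beside the counts they move.

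The members and lists were chosen with earlier results of these data known. Of the list of sodium transport genes 2 are not reported here. Named were the members, listed genes that reached a mean of 10 normalized counts and an adjusted p of 0.05 or less against vehicle, the 3 genes most like each member, *Fkbp5* and *Per1*. Others, markers included, were named after their values were seen.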

Additional observations from a re-analysis of the deposited data

Results flagged for a closer look

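*Scnn1a* was marked in the aldosterone library of sample number 2 and biological replicate 2, which stood at 0.363 RPKM while the nearest other library had 0.300 and the lowest 0.290. The gap made up 0.861 of the range of the 4 libraries and passed Dixon's 95% critical value for 4 values. It was the only mark among 36 groups of 4 libraries examined, 12 genes in 3 treatments, where chance marks about 1 group in 20. Without that library the log2 fold change against vehicle was -0.02 (limma adjusted p = 0.982), and it had 45 reads of *Scnn1a*.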

How the results depend on the processing

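*Scnn1a* rests on 15 to 45 reads per library, and all results on plates of 2 mice. The sign of a member changed only where it was not called. For *Scnn1a* against vehicle it was -0.017 in edgeR and -0.017 in DESeq2, and -0.11 with sample number 1 only (without 1 library, -0.17 to 0.20). *Slc12a2* was -0.07 against vehicle (without 1 library, -0.14 to 0.030) and 0.05 against spironolactone, where sample number 1 only gave -0.034 (without 1 library, -0.038 to 0.15). For spironolactone minus vehicle, leaving out 1 library gave -0.041 to 0.12 for *Nedd4l*, -0.17 to 0.041 for *Atp1b1*, -0.042 to 0.055 for *Atp1b3* and -0.0096 to 0.039 for *Wnk1*. Sample number 2 only gave 0.019 for *Atp1b1* and -0.0039 for *Atp1b3*, and upper-quartile scaling -0.0057 for *Atp1b3*.

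With sample number 1 only, 17 genes were called against vehicle and 4 against spironolactone (the same counts at both thresholds), with sample number 2 only 888 and 943, and with averaged libraries 722 and 535 (277 and 223 at both thresholds, beside 564 and 525). Members called fell from 2 to 1 with averaged libraries in each comparison, to 0 with sample number 1 only, and to 1 and 0 with sample number 2 only. In these fits *Wnk1* against vehicle was 0.49, 0.62 and 0.36 (averaged, sample number 1, sample number 2) and against spironolactone 0.47, 0.59 and 0.35, never past the threshold. The fits of 1 sample number hold fewer libraries, and the averaged fit has 2 values in each group. Other causes were not tested. *Atp1b1* was past it except at 1.20 against vehicle with sample number 1 and at 1.38 and 1.19 against spironolactone with sample numbers 1 and 2. Without 1 library 1766 to 2246 genes were called against vehicle and 1565 to 1865 against spironolactone, where 1 to 2 members were called and *Wnk1* was 0.41 to 0.54.

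With sample numbers taken as a replicate block, 4563 and 3974 genes were called, and 97 for spironolactone against vehicle (2 at both thresholds), where DESeq2 called 13. On recovered reads edgeR called 3055 genes against vehicle and 2590 against spironolactone, and DESeq2 3224 and 2749. The block changed no call of a member. All 18 levels of members stayed within 1 SD under each alternative run. For the runs without 1 library this was fixed beforehand, since dropping 1 of 4 values cannot move a mean by 1 SD.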
